A study of Mus musculus with 6 samples.

Results

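Small nucleolar RNAs (snoRNAs), small Cajal body RNAs (scaRNAs) and small nuclear RNAs (snRNAs) were read from the deposited table of 17312 mouse genes by their gene type in GENCODE release M21. This gave 238 genes, of 2943 that the annotation gives these types: 184 snoRNA, 16 scaRNA and 38 snRNA genes. The rule would have kept the 300 with the highest mean, a limit that was not reached. The deposited table itself may have been cut on measured reads, since each of the 238 had at least 10 reads in some tumor and the smallest of their maxima was 10. The study measured RNA from 6 leg tumors of mice carrying a Cre-lox inducible fusion allele, a mouse model of synovial sarcoma. In 3 tumors the allele was SS18-SSX2, and in the other 3 it was SS18-SSX1. Every mouse had TATCre protein, a cell-entering recombinase that switches the allele on, injected into the soft tissue in front of the tibia, and tumors were taken about 1 year later. No other treatment was given, and tissue without a fusion allele was not analysed here. The labels do not give sex or say whether the tumors of a group came from separate mice, so a p-value here measures spread among these samples, which may be partly technical.

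snoRNAs guide chemical modification of other RNAs by base pairing. C/D box snoRNAs carry a C box and a D box and direct methylation of the ribose, while H/ACA box snoRNAs end in an ACA box and direct the change of uridine to pseudouridine, most often in ribosomal RNA. A few, among them U3 and U17, are instead needed for cutting the ribosomal RNA precursor. scaRNAs do the same kind of guiding for snRNAs in the Cajal body, a compartment of the nucleus. snRNAs form the cores of the spliceosome, which removes introns, and U7 acts in the maturation of histone messenger RNA. Most mammalian snoRNAs are cut from introns of longer host transcripts.

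By symbol or, for genes named only by a Gm number, by the boxes in the sequence, the members fell into 88 C/D box RNAs, 79 H/ACA box RNAs, 18 scaRNAs and 38 snRNAs, and 15 snoRNAs stayed unclassified. The 18 scaRNAs include genes with a Scarna symbol that are typed as snoRNA. The RNAs were 60 to 414 bases long. Of them, 106 lay in an annotated exon of another gene on the same strand, 99 in an intron, and 33 in no such gene. The sequences below are those of the RNAs with the highest levels or the clearest patterns across tumors, taken from the GENCODE M21 transcripts on GRCm38. Capitals mark the C box TGATGA within the first 20 bases, the D box CTGA within the last 20, the ACA box starting 4 to 8 bases from the end, and ATTTTTG, which resembles the site where Sm proteins bind.
Scarna10, first 60 of 325 bases, chr6:125186624-125186683, minus strand: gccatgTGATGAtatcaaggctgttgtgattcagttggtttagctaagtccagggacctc
Scarna10, last 60 bases, chr6:125186359-125186418, minus strand: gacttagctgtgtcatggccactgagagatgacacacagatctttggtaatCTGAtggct
Snora73a, chr4:132352775-132352979, minus strand: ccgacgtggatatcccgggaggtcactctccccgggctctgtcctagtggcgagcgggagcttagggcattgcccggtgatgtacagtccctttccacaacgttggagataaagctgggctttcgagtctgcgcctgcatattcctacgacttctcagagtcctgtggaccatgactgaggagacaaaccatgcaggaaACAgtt
Snora73b, chr4:132352322-132352526, minus strand: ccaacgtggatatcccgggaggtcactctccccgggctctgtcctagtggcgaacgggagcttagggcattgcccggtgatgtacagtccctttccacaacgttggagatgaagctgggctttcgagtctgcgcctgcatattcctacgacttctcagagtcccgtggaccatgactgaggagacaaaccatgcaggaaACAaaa
Snord17, chr2:144265979-144266216, minus strand: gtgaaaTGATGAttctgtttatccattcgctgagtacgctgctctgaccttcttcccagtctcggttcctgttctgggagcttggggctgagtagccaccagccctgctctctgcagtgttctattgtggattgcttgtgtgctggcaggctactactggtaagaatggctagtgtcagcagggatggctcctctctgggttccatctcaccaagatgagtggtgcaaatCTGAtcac
Gm24407, chr5:115490254-115490394, plus strand: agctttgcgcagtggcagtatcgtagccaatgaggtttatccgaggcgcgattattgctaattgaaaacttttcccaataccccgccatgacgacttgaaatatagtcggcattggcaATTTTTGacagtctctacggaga
Gm24265, chr5:115489459-115489599, plus strand: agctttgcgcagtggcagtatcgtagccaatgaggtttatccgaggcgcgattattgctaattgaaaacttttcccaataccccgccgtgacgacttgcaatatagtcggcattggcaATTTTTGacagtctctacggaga

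The motifs were searched on the strand of the RNA only. TGATGA lay in the first 20 bases of 63 of the 88 C/D box members (71.6%), against 327 of the 1507 annotated snoRNAs (21.7%). CTGA lay in the last 20 bases of 83 C/D box members (94.3%), against 35.4% of annotated snoRNAs. The ACA box was present in 77 of the 79 H/ACA box members (97.5%), against 45.0% of annotated snoRNAs. For genes with only a Gm number these boxes also set the class, so the shares in the classes are partly a result of the sorting. ATTTTTG occurred in 15 of 38 snRNA members (39.5%), against 3.33% of the 1383 annotated snRNA transcripts searched.

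Values are FPKM as the authors deposited them, that is reads scaled to the length of the gene and to the depth of the library. Libraries had been depleted of ribosomal RNA. From the steps between low FPKM values, the tumors held 14529847, 7285853 and 14357648 counted reads in SS18-SSX2 tumors 1 to 3, against 13316363, 13767916 and 17546227 in SS18-SSX1 tumors 1 to 3. SS18-SSX2 tumor 2 was thus the shallowest library. Because the RNAs are short, few reads stood behind most values: 111 of the 238 members had fewer than 10 reads in 3 or more tumors, 40 had 0 reads in at least 1 tumor, and 66 had at least 10 in every tumor. A listed 0 of a member means that no read was counted at this depth.

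The levels of the RNAs differed mostly between individual tumors of the same genotype. The members held 3.05%, 12.3% and 6.86% of the summed FPKM in SS18-SSX2 tumors 1, 2 and 3, against 2.85%, 9.50% and 12.1% in SS18-SSX1 tumors 1, 2 and 3. As shares of reads this was 0.160%, 1.21% and 0.476% in the SS18-SSX2 tumors, against 0.146%, 0.823% and 1.20% in the SS18-SSX1 tumors. Tumor 1 had the lowest share in each genotype and the ranges overlapped almost completely. The 10 members with the highest mean held between 49.1% (SS18-SSX1 tumor 1) and 86.4% (SS18-SSX1 tumor 3) of the members' FPKM. Of the 238, 7 averaged at least 1000 FPKM and 128 averaged under 10 FPKM.

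**Figure D1:**
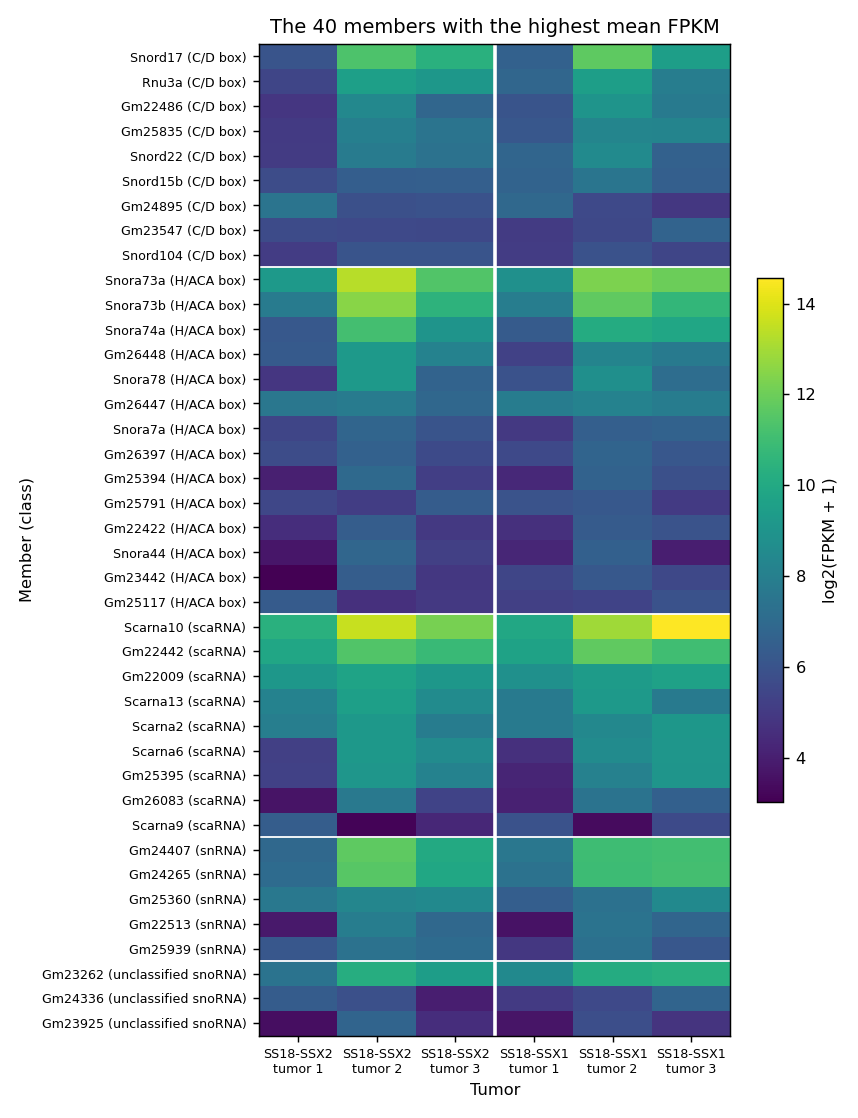
Level of the 40 members with the highest mean, 1 row per member grouped by class and 1 column per tumor, with the SS18-SSX2 tumors on the left; the colour is log2(FPKM + 1). Tumor 1 of each genotype is dark for most of the rows at the top of their class, and Scarna10 in SS18-SSX1 tumor 3 is the brightest cell at 24261 FPKM.

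Scarna10, a composite scaRNA that in human guides modification of U5 snRNA, had the highest mean. It stood at 1302, 12521 and 4780 FPKM in SS18-SSX2 tumors 1, 2 and 3, against 985, 7733 and 24261 FPKM in SS18-SSX1 tumors 1, 2 and 3. The SS18-SSX1 tumors held both the lowest and the highest value, and the SS18-SSX2 tumors lay between them. In SS18-SSX1 tumor 3, Scarna10 had 138347 reads and made up 52.3% of the FPKM of all members, against 12.5% to 22.96% in the other tumors. Scarna10 overlaps an annotated exon of Ncapd2, a condensin subunit, whose level followed another order: 68.1, 33.3 and 83.3 FPKM in SS18-SSX2 tumors, against 28.9, 21.99 and 38.1 FPKM in SS18-SSX1 tumors. The log2 difference of Scarna10 between genotypes, SS18-SSX2 minus SS18-SSX1 on log2(FPKM + 1), was −0.42 with a standard error of 2.04 (limma, Benjamini-Hochberg adjusted p = 0.997).

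Scarna6 and Gm25395, both scaRNAs inside the autophagy gene Atg16l1, repeated the low level of tumor 1. Scarna6 had 36.1, 579 and 392 FPKM in SS18-SSX2 tumors, against 23.8, 383 and 552 FPKM in SS18-SSX1 tumors. Gm25395 had 37.7, 542 and 281 FPKM in SS18-SSX2 tumors, against 17.9, 275 and 528 FPKM in SS18-SSX1 tumors. Both were lowest in tumor 1 of either genotype, and the genotypes overlapped. Not all scaRNAs varied so widely. Gm22009, inside the importin gene Kpna4, had 568, 833 and 567 FPKM in SS18-SSX2 tumors, against 459, 653 and 796 FPKM in SS18-SSX1 tumors, a highest-to-lowest ratio of 1.82, where that of Gm25395 was 30.2. Gm22442, inside the chromatin remodeller gene Chd3, had 921, 2755 and 1858 FPKM in SS18-SSX2 tumors, against 817, 3456 and 2070 FPKM in SS18-SSX1 tumors, lowest in tumor 1 of each. Scarna2, a guide for U2 snRNA, had 246, 587 and 236 FPKM in SS18-SSX2 tumors, against 213, 345 and 557 FPKM in SS18-SSX1 tumors.

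Among H/ACA box RNAs, the pair Snora73a and Snora73b, which are U17 RNAs and act in the maturation of 18S ribosomal RNA, was the most abundant. Snora73a had 604, 10434 and 2736 FPKM in SS18-SSX2 tumors, against 447, 4960 and 4061 FPKM in SS18-SSX1 tumors. Snora73b had 228, 5787 and 1439 FPKM in SS18-SSX2 tumors, against 245, 3449 and 1607 FPKM in SS18-SSX1 tumors. Each was lowest in tumor 1 and highest in tumor 2 of its genotype, and the genotypes overlapped. The sequences printed above are 98.0% identical over 202 aligned bases, so reads could be divided between them in a way that no label describes. The third, Snora74a, had 72.0, 2239 and 506 FPKM in SS18-SSX2 tumors, against 80.5, 1122 and 926 FPKM in SS18-SSX1 tumors.

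Both Snora73 genes lie in Snhg3, a noncoding host gene, and Snora73a overlaps an exon of it. Snhg3 had 131, 2174 and 573 FPKM in SS18-SSX2 tumors, against 96.6, 1036 and 849 FPKM in SS18-SSX1 tumors, the order of Snora73a. Converted to reads over its annotated exons, Snhg3 had 1874, 15619 and 8107 reads in SS18-SSX2 tumors, against 1269, 14060 and 14685 in SS18-SSX1 tumors. Snora73a alone had 1800, 15585 and 8052 reads in SS18-SSX2 tumors, against 1221, 14000 and 14607 in SS18-SSX1 tumors. The host thus exceeded the snoRNA by only 34 to 78 reads in any tumor, and the 2 genes' values cannot be told apart. Host reads came out whole, within 0.05 reads in all tumors, for 43 of the 106 members in an exon, and in all 43 the host had at least as many reads as the member in every tumor. For most of these, such as Snord78 in Gas5 with 8 to 66 reads beside 457 to 1978 in the host, the host is far larger. Scarna10 in Ncapd2 is not among the 43. In SS18-SSX1 tumor 3 it had 138347 reads, more than the 38.1 FPKM of Ncapd2 over 6267 exon bases can hold. The count of 43 thus does not stand for every member in an exon.

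C/D box RNAs were led by Snord17 and by Rnu3a, the U3 RNA that is needed for the first cuts of the ribosomal RNA precursor. Snord17 had 65.1, 2596 and 1302 FPKM in SS18-SSX2 tumors, against 97.5, 3297 and 730 FPKM in SS18-SSX1 tumors. Rnu3a had 42.9, 745 and 558 FPKM in SS18-SSX2 tumors, against 115.1, 722 and 239 FPKM in SS18-SSX1 tumors. For each, tumor 1 was lowest and tumor 2 highest in its genotype, and the genotypes overlapped. Snord17 had the largest ratio of highest to lowest tumor of any member above 0 in all tumors, 50.7. Its host Snx5, a sorting nexin, stayed between 21.8 and 34.4 FPKM in the 6 tumors. Snord118, the U8 RNA of 28S ribosomal RNA maturation, had 1.02, 4.07 and 16.5 FPKM in SS18-SSX2 tumors, against 2.23, 17.8 and 12.7 FPKM in SS18-SSX1 tumors.

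The 2 most abundant snRNA members, Gm24407 and Gm24265, carry no gene name beyond a number in the annotation and lie next to each other on chromosome 5. Gm24407 had 123, 3377 and 1057 FPKM in SS18-SSX2 tumors, against 193, 2053 and 2150 FPKM in SS18-SSX1 tumors. Gm24265 had 135, 3068 and 960 FPKM in SS18-SSX2 tumors, against 168, 1981 and 2199 FPKM in SS18-SSX1 tumors. Both were lowest in tumor 1, and the genotypes overlapped. Over 141 bases the 2 printed sequences are 98.6% identical, with 2 mismatches.

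Across the 198 members above 0 FPKM in all tumors and tested, the median ratio of the highest to the lowest tumor was 6.05, against 2.39 for the 13689 tested genes of any type above 0 in all tumors. The median standard error of the genotype difference was 0.59 on the log2 scale for members, against 0.33 for all tested genes. Many members rest on few reads, with 111 of the 238 under 10 reads in 3 or more tumors. The part of read depth in these 2 contrasts was not tested.

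The direction in which a tumor stood apart went with the length of the RNA. Each member's level in a tumor was set against its mean over the 6 tumors, on log2(FPKM + 1). Length also differs between the classes, and the 2 were not separated. For C/D box RNAs the median deviation was 0.19, −0.14 and 0.16 in SS18-SSX2 tumors, against 0.59, 0.25 and −0.46 in SS18-SSX1 tumors. For H/ACA box RNAs it was −0.68, 0.69 and 0.04 in SS18-SSX2 tumors, against −0.27, 0.69 and −0.17 in SS18-SSX1 tumors. For the 82 tested members of 60 to 100 bases, the median deviation was 0.50, −0.29 and 0.12 in SS18-SSX2 tumors 1, 2 and 3, against 0.82, −0.08 and −0.49 in SS18-SSX1 tumors 1, 2 and 3. For the 113 of 104 to 149 bases it was −0.68, 0.53 and 0.08 in SS18-SSX2 tumors, against −0.22, 0.56 and −0.22 in SS18-SSX1 tumors. For the 39 of 151 to 414 bases it was −0.70, 0.83 and 0.21 in SS18-SSX2 tumors, against −1.14, 0.73 and 0.69 in SS18-SSX1 tumors. In tumor 1 of both genotypes the shortest RNAs were high and the longest low, and in tumor 2 of both the order was turned round. The shortest bin holds the 16 members of an imprinted cluster on chromosome 12, described further on. For its other 66 members the median deviation was 0.34, −0.39 and 0.07 in SS18-SSX2 tumors, against 0.56, −0.04 and −0.21 in SS18-SSX1 tumors, so the cluster carried part of the pattern, most in SS18-SSX1 tumor 3.

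Across the 234 tested members, Spearman's rho between length and deviation was −0.46, 0.47 and 0.03 in SS18-SSX2 tumors, against −0.61, 0.30 and 0.37 in SS18-SSX1 tumors. Without the cluster, over 218 members, it was −0.40, 0.50 and 0.08 in SS18-SSX2 tumors, against −0.56, 0.25 and 0.27 in SS18-SSX1 tumors. These are descriptions across genes, which share the library and are no independent replicates. SS18-SSX1 tumor 1 held the highest value for 59 members, and SS18-SSX2 tumor 1 the lowest for 58. Rny1, a short RNA bound by the Ro protein and outside the 3 gene types, was also lowest in tumor 1 of both genotypes. It had 53.5, 232 and 192 FPKM in SS18-SSX2 tumors, against 36.2, 167 and 216 FPKM in SS18-SSX1 tumors. The median deviation of its gene type, misc_RNA (32 tested), was also lowest there, at −0.65 and −0.74. The 147 tested miRNA genes ran otherwise. Their median deviation was 0.10, 0.31 and 0.59 in SS18-SSX2 tumors, against 0.47, 0.03 and −0.99 in SS18-SSX1 tumors. The median deviation of the members' 128 tested host genes lay between −0.05 and 0.17 in every tumor. The median over all tested genes lay between −0.07 and 0.05. The part that RNA quality or library preparation has in the length pattern was not tested.

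**Figure D2:**
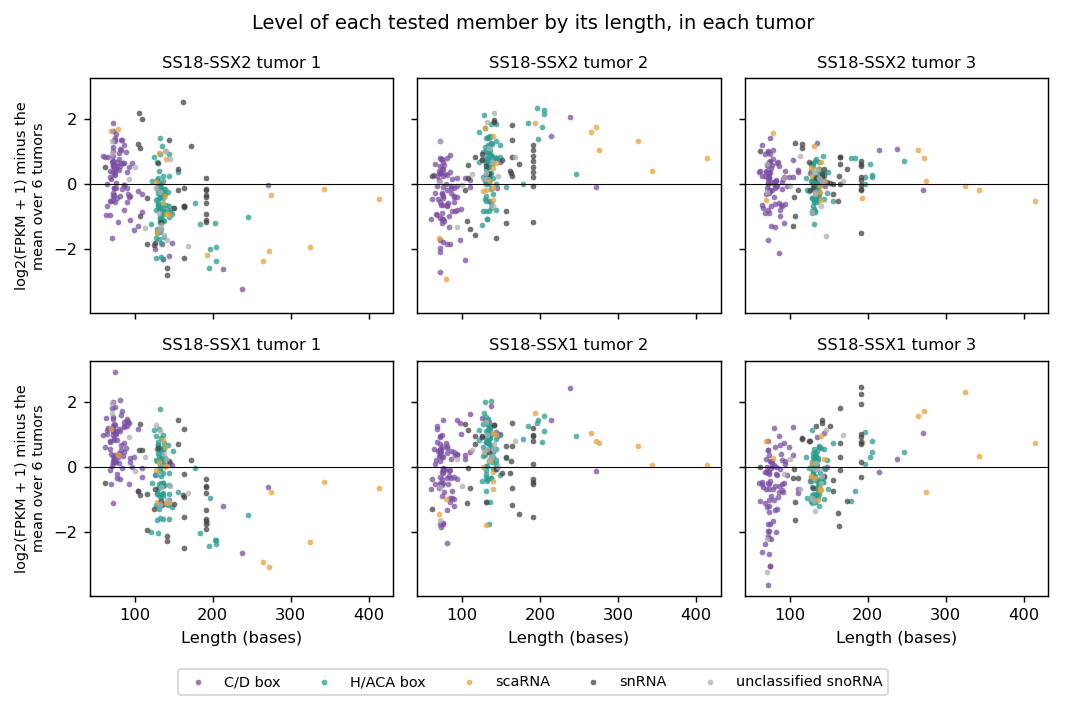
Deviation of each of the 234 tested members from its own mean over the 6 tumors, log2(FPKM + 1), against its length in bases, 1 panel per tumor with SS18-SSX2 above SS18-SSX1 and colours for the class. Points slope down in tumor 1 of both genotypes (rho −0.46 and −0.61), up in tumor 2 of both (0.47 and 0.30) and in SS18-SSX1 tumor 3 (0.37), and are level in SS18-SSX2 tumor 3 (0.03).

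Between genotypes, no member differed past the threshold. Genes with at least 1 FPKM in at least 3 tumors were tested with limma, which kept 234 of the 238 members, and p-values were adjusted over all 13873 tested genes by the Benjamini-Hochberg method. Of the members, 0 were called at an adjusted p under 0.05, against 9 of all tested genes (0.0649%, 0.0432% higher and 0.0216% lower with SS18-SSX2), and the smallest adjusted p of a member was 0.653. At an unadjusted p under 0.05 there were 15 members (6.41%), 9 with SS18-SSX2 higher and 6 with it lower, against 4.97% of all tested genes (3.26% higher, 1.71% lower). A voom fit on the recovered reads, chosen after seeing the data, also called 0 members, against 6 of the 13681 genes it tested. It had 3 members at an unadjusted p under 0.05, but the share of all genes at that p was not computed for voom. The 3 values of one genotype all lay above the 3 of the other for 13 members (5.56%), 8 with SS18-SSX2 higher and 5 with it lower, against 8.72% of all tested genes (4.97% higher, 3.76% lower).

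Median differences were small in each class. The median log2 difference over the 234 members was −0.06, against 0.01 over all tested genes, where 108 members had the higher mean log2(FPKM + 1) in SS18-SSX2 tumors and 126 the lower. Counts of higher and lower genes below are on the same scale. It was −0.17 for C/D box RNAs (33 higher, 55 lower), −0.01 for H/ACA box RNAs (39 higher, 40 lower), 0.24 for scaRNAs (12 higher, 6 lower), 0.07 for snRNAs (18 higher, 16 lower) and −0.10 for unclassified snoRNAs (6 higher, 9 lower). Each of these signs turned when at least 1 tumor was left out: the C/D box median was 0.05 without SS18-SSX1 tumor 1, and the scaRNA median −0.09 without SS18-SSX2 tumor 2. The H/ACA box median was 0.38 without SS18-SSX2 tumor 1, the snRNA median −0.46 without SS18-SSX1 tumor 1, and the unclassified median 0.22 without SS18-SSX2 tumor 1.

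**Figure D3:**
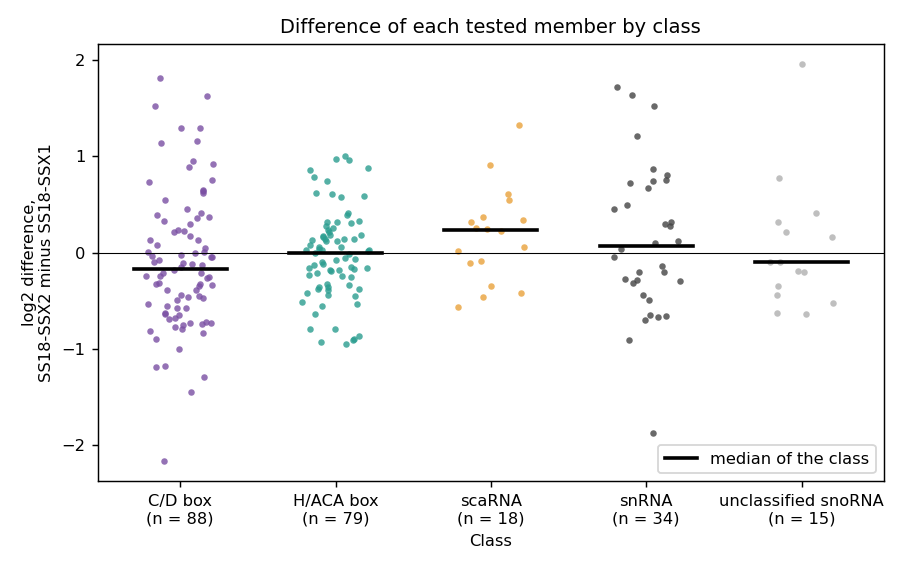
Log2 difference, SS18-SSX2 minus SS18-SSX1 on log2(FPKM + 1), of each of the 234 tested members by class, 1 point per member; black bars are class medians and the sideways spread of points is only for display. The medians lie between −0.17 (C/D box) and 0.24 (scaRNA), and single members spread over more than 1 unit on either side of 0.

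The members whose genotypes did not overlap are described by their values, since none passed the adjusted threshold. Of these 13, 8 reached 10 reads in a tumor only in the genotype where they were higher, so a cut of the table on reads would have kept them through that genotype alone: Gm25873, Gm23121, DQ267101, Rnu7, Snord53, Snord71, Snord16a and Snord14d. Rnu7, the U7 RNA of the histone messenger RNA machinery, had 11.1, 8.85 and 15.7 FPKM in SS18-SSX2 tumors, against 4.84, 2.34 and 7.35 FPKM in SS18-SSX1 tumors. The values rest on 10, 4 and 14 reads in SS18-SSX2 tumors, against 4, 2 and 8 reads in SS18-SSX1 tumors. Every SS18-SSX2 tumor lay above every SS18-SSX1 tumor, with means of 11.9 ± 3.50 FPKM in SS18-SSX2 tumors and 4.85 ± 2.51 FPKM in SS18-SSX1 tumors (SD, n = 3 each). The log2 difference was 1.20 with a standard error of 0.39 (limma, Benjamini-Hochberg adjusted p = 0.803). It is shown here with Snora24 and Snord83b, since these 2 had the smallest p of the members that lay lower.
Rnu7, chr6:124741225-124741286, minus strand: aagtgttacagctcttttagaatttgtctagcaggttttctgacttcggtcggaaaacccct
Snora24, chr3:123507937-123508066, minus strand: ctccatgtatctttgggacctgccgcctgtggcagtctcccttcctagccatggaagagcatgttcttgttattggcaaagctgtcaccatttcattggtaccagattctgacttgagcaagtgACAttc
Snord83b, chr15:80078498-80078591, minus strand: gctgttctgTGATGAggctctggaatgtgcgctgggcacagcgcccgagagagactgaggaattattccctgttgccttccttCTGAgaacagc

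Snora24, which in human guides pseudouridine formation in 18S ribosomal RNA, had 5.29, 4.22 and 8.57 FPKM in SS18-SSX2 tumors, against 11.6, 12.3 and 11.4 FPKM in SS18-SSX1 tumors. The SS18-SSX1 tumors lay close together and all above the SS18-SSX2 tumors, and the log2 difference was −0.91 with a standard error of 0.29 (limma, Benjamini-Hochberg adjusted p = 0.803). Snord83b, a C/D box RNA within the ribosomal protein gene Rpl3, had 8.05, 5.84 and 6.67 FPKM in SS18-SSX2 tumors, against 11.98, 30.9 and 12.1 FPKM in SS18-SSX1 tumors. Its genotypes did not overlap, with the highest value in SS18-SSX1 tumor 2, and the log2 difference was −1.17 with a standard error of 0.39 (limma, Benjamini-Hochberg adjusted p = 0.809).

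Snord16a in Rpl4 and Snord14d in the chaperone gene Hspa8 were the other C/D box RNAs lower in all 3 SS18-SSX2 tumors. Snord16a had 1.39, 2.77 and 6.33 FPKM in SS18-SSX2 tumors, against 6.83, 11.7 and 8.64 FPKM in SS18-SSX1 tumors. Snord14d, a U14 RNA, had 3.20, 3.19 and 0 FPKM in SS18-SSX2 tumors, against 6.11, 5.07 and 7.29 FPKM in SS18-SSX1 tumors. Neither had more than 16 reads in a tumor. Gm26447 in the exon of the translation factor gene Eif4a2 was the most abundant of the 13, with 195, 230 and 117 FPKM in SS18-SSX2 tumors, against 236, 283 and 232 FPKM in SS18-SSX1 tumors. Eif4a2 itself had 38.0, 49.5 and 27.1 FPKM in SS18-SSX2 tumors, against 56.3, 50.7 and 71.0 FPKM in SS18-SSX1 tumors, also without overlap, and its exon includes the snoRNA.

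Among the members higher in all 3 SS18-SSX2 tumors, Snord53 in Wdr43 had 10.6, 8.80 and 15.2 FPKM in SS18-SSX2 tumors, against 5.78, 6.52 and 1.46 FPKM in SS18-SSX1 tumors. Snord71 in Ap1g1 had 8.10, 6.46 and 8.19 FPKM in SS18-SSX2 tumors, against 6.18, 1.71 and 2.01 FPKM in SS18-SSX1 tumors. Gm24727, an H/ACA box RNA in Gsr, had 8.13, 12.4 and 8.71 FPKM in SS18-SSX2 tumors, against 4.17, 7.06 and 2.77 FPKM in SS18-SSX1 tumors. In each the separation between the nearest tumors of the 2 genotypes was small beside the spread within a genotype.

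Gm25873 had the smallest p of any member. Its nearest named relative was Rnu6, at 93.5% identity, and it lies in an intron of Zbtb20. It had 5.79, 2.57 and 6.51 FPKM in SS18-SSX2 tumors, against 0.702, 2.04 and 0 FPKM in SS18-SSX1 tumors, on 9, 2 and 10 reads against 1, 3 and 0. Its log2 difference was 1.71 with a standard error of 0.49 (limma, Benjamini-Hochberg adjusted p = 0.653). Gm23121 in Tbl1x had 5.17, 3.17 and 2.82 FPKM in SS18-SSX2 tumors, against 2.17, 0 and 0.329 FPKM in SS18-SSX1 tumors.

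**Figure D4:**
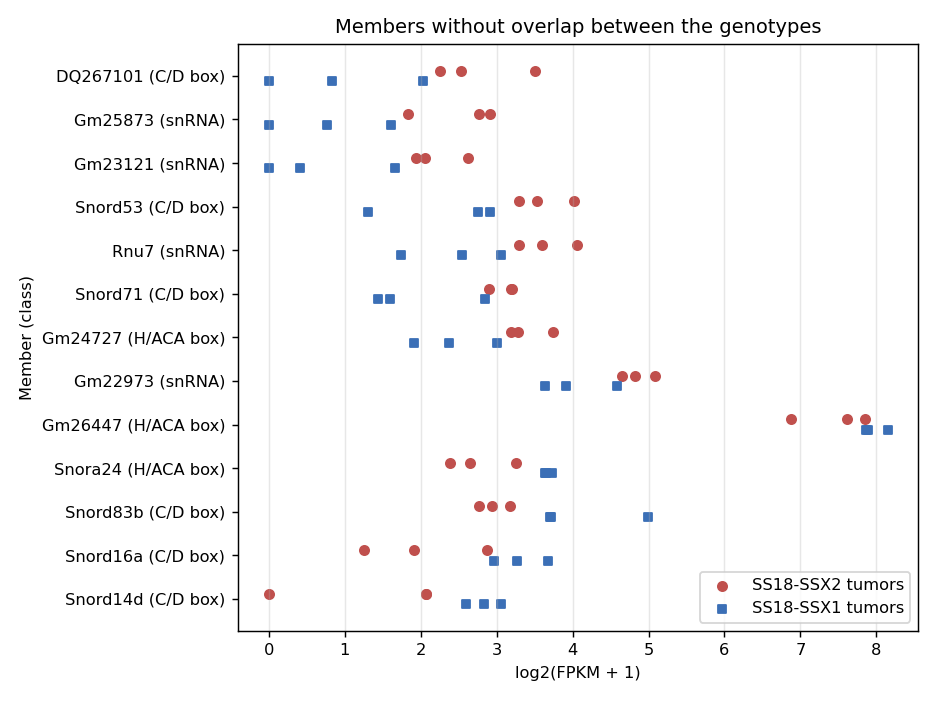
Level in each tumor of the 13 members whose genotypes did not overlap, log2(FPKM + 1), 1 row per member with red circles for the 3 SS18-SSX2 tumors above blue squares for the 3 SS18-SSX1 tumors. The 8 upper rows are higher in SS18-SSX2 tumors, the 5 lower rows are lower, and all but Gm22973 and Gm26447 lie under 5 on this scale.

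The snRNA genes of the spliceosome came in families of near-identical copies, and 18 of the 38 snRNA members had an annotated copy at 95% identity or more. Rnu2-10, a U2 gene whose RNA pairs with the branch point of introns, and the 8 members nearest to it formed the largest. Together they had 861, 800 and 1548 reads in SS18-SSX2 tumors, against 355, 1029 and 1874 reads in SS18-SSX1 tumors. Gm25360, which is 97.9% identical to Rnu2-10 with 4 mismatches over 191 bases, held between 41.1% and 64.7% of the family's reads. The 2 sequences are shown because their counts ran differently although the letters hardly differ.
Rnu2-10, chr11:101658238-101658428, plus strand: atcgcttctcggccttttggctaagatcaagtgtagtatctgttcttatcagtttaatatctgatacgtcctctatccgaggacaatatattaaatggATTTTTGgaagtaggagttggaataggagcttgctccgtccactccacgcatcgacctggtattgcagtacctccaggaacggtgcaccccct
Gm25360, chr1:72226240-72226430, plus strand: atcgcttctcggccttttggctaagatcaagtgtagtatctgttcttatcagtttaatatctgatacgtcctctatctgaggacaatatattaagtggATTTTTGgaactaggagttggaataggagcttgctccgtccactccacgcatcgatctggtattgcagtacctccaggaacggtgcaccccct

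Rnu2-10 had 2.52, 0.719 and 0.365 FPKM in SS18-SSX2 tumors, against 1.97, 6.46 and 17.3 FPKM in SS18-SSX1 tumors, so that SS18-SSX1 tumor 3 was highest and the genotypes overlapped. Gm25360 had 198, 319 and 365 FPKM in SS18-SSX2 tumors, against 88.5, 161 and 358 FPKM in SS18-SSX1 tumors. Gm24497, 2 mismatches from Rnu2-10, had 2.88, 5.03 and 3.65 FPKM in SS18-SSX2 tumors, against 2.36, 0.761 and 26.9 FPKM in SS18-SSX1 tumors. SS18-SSX1 tumor 3 was again highest. Gm22973, 9 mismatches away, was the only family member whose genotypes did not overlap, with 24.1, 27.3 and 32.8 FPKM in SS18-SSX2 tumors, against 11.4, 14.1 and 22.98 FPKM in SS18-SSX1 tumors. The sources used here do not give how reads matching several copies were counted, so the split within the family is uncertain and the sum is the firmer value.

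U1, which binds the 5′ end of introns, was represented by 4 members nearest to Rnu1a1. Together they had 37, 303 and 310 reads in SS18-SSX2 tumors, against 28, 397 and 356 reads in SS18-SSX1 tumors, lowest in tumor 1 of both genotypes. Gm22513 held 83.8% to 97.2% of them. For U5, which holds the exons in place, the nearest member was Gm25099, 98.0% identical to Rnu5g, with 3.56, 28.4 and 34.2 FPKM in SS18-SSX2 tumors, against 3.24, 30.1 and 28.5 FPKM in SS18-SSX1 tumors. The minor spliceosome, which handles a rare class of introns, has U11 and U12 in the place of U1 and U2. Rnu11 had 3.08, 10.2 and 9.36 FPKM in SS18-SSX2 tumors, against 3.36, 11.4 and 20.8 FPKM in SS18-SSX1 tumors. Rnu12 had 3.65, 11.8 and 6.92 FPKM in SS18-SSX2 tumors, against 2.49, 5.77 and 17.4 FPKM in SS18-SSX1 tumors. In both, SS18-SSX1 tumor 3 was highest and the genotypes overlapped.

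A cluster of 16 members lay on chromosome 12 between the start of Meg3 and the end of Mirg (chr12:109541001-109749460, GRCm38), 10 of them with Rian as the assigned host. Gm24899 also lies within the span of Rian but was assigned to Gm26945, a smaller gene there. This region is imprinted: the noncoding genes Meg3, Rian and Mirg are read from the maternal copy, and the neighbouring protein genes Dlk1 and Rtl1 from the paternal copy. Most of the snoRNAs here are C/D box RNAs without a known target in ribosomal RNA. The 3 sequences below come from Rian and show the shared boxes with differing middle parts.
Gm24895, chr12:109646129-109646202, plus strand: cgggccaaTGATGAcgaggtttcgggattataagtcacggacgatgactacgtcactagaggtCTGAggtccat
AF357425, chr12:109636012-109636084, plus strand: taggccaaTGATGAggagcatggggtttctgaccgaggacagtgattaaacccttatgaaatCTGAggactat
DQ267101, chr12:109651424-109651496, plus strand: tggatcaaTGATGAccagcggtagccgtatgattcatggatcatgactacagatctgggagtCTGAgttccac

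The 16 members together had 410, 201 and 214 FPKM in SS18-SSX2 tumors, against 443, 146 and 37.1 FPKM in SS18-SSX1 tumors. Their reads numbered 439, 107 and 226 in SS18-SSX2 tumors, against 434, 147 and 48 in SS18-SSX1 tumors. SS18-SSX1 tumor 3 was the lowest for 15 of the 16, ties counted, and 9 had 0 reads there, although it was the deepest library. Gm24895, the most abundant, had 179, 57.5 and 61.2 FPKM in SS18-SSX2 tumors, against 122, 46.1 and 29.3 FPKM in SS18-SSX1 tumors. AF357425 had 17.9, 18.8 and 12.4 FPKM in SS18-SSX2 tumors, against 30.9, 6.96 and 0.781 FPKM in SS18-SSX1 tumors. DQ267101 had 10.4, 3.76 and 4.77 FPKM in SS18-SSX2 tumors, against 3.09, 0 and 0.781 FPKM in SS18-SSX1 tumors, and was the 1 member of the 16 whose genotypes did not overlap.

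The noncoding hosts were low in the same tumor. Rian had 38.2, 29.5 and 27.9 FPKM in SS18-SSX2 tumors, against 32.8, 21.5 and 3.79 FPKM in SS18-SSX1 tumors. Meg3 had 15.1, 18.7 and 16.9 FPKM in SS18-SSX2 tumors, against 24.6, 13 and 0.299 FPKM in SS18-SSX1 tumors. Mirg had 9.82, 8.45 and 10.3 FPKM in SS18-SSX2 tumors, against 10.4, 6.09 and 0.531 FPKM in SS18-SSX1 tumors. In all 3 only SS18-SSX1 tumor 3 lay far from the other tumors. The protein genes of the paternal copy stood the other way round in it. Dlk1, a membrane protein of the Notch ligand type, had 12.2, 21.9 and 22.1 FPKM in SS18-SSX2 tumors, against 14.9, 33.8 and 125 FPKM in SS18-SSX1 tumors. Rtl1, a retrotransposon-derived protein, had 5.16, 12.8 and 6.18 FPKM in SS18-SSX2 tumors, against 2.19, 6.03 and 42.5 FPKM in SS18-SSX1 tumors.

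The genotype difference of the 16 members rests on that tumor. By the means of log2(FPKM + 1), which the 0 values of that tumor pull down, 15 of the 16 were higher in SS18-SSX2 tumors, with a median log2 difference of 0.83. By the means of FPKM it was 11 of 16. Without SS18-SSX1 tumor 3 the count on the log2 scale was 8 of 16 and the median −0.03. None was called (smallest adjusted p = 0.767 by limma, Benjamini-Hochberg adjusted), and each of Meg3, Rian, Mirg, Dlk1 and Rtl1 had an adjusted p of 0.997. Mast cell markers were highest in the same tumor: all 8 were measured, and their summed level was 30.9, 63.8 and 13.8 FPKM in SS18-SSX2 tumors, against 99.4, 64.9 and 2519 FPKM in SS18-SSX1 tumors. None of the 8 was at 0 in any tumor. Their part in the result was not tested. In bulk tissue, fewer cells of a type and less RNA per cell cannot be told apart.

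**Figure D5:**
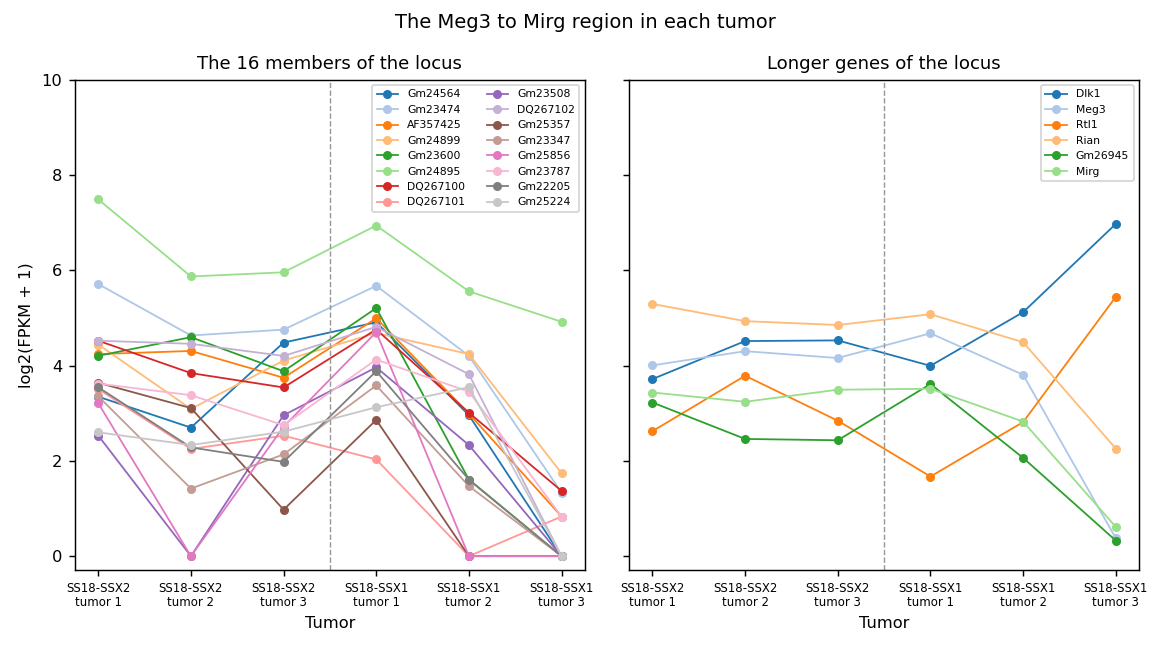
Level in each tumor, log2(FPKM + 1), of the 16 members between Meg3 and Mirg (left panel) and of the 6 longer genes of the region, Dlk1 and Rtl1 included (right panel), 1 line per gene, with the SS18-SSX2 tumors left of the dashed line. In SS18-SSX1 tumor 3, 9 of the 16 members are at 0, Meg3 is at 0.299 FPKM, and Dlk1 is at 125 FPKM.

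Members and their hosts are set side by side as signs of differences that did not pass the threshold. In 184 pairs of a tested member and a tested host gene, with 125 hosts in all, both were higher in SS18-SSX2 tumors in 46 and both lower in 68. The member was higher and the host lower in 39, and the member lower and the host higher in 31. Of the 125 hosts 0 were called by limma or by voom on reads, and each fit had 6 at an unadjusted p under 0.05. Of all tested genes, limma called 0.0649% and had 4.97% at an unadjusted p under 0.05. Members that share a host are no independent pairs, and pairs such as Snora73a and Snhg3 may share reads. The 9 C/D box RNAs of Gas5, a noncoding host of growth-arrested cells, were together at 273, 105 and 148 FPKM in SS18-SSX2 tumors, against 264, 148 and 114.9 FPKM in SS18-SSX1 tumors. Gas5 had 36.2, 16.7 and 21.1 FPKM in SS18-SSX2 tumors, against 24.9, 28.2 and 29.5 FPKM in SS18-SSX1 tumors. Both were highest in SS18-SSX2 tumor 1, and in the SS18-SSX1 tumors the summed snoRNAs were highest in tumor 1, where Gas5 was lowest.

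The genotypes did not overlap for 10 of the members' 128 tested host genes (7.81%), against 8.72% of all tested genes. In a list of 32 tested snoRNA host genes they did not overlap for 4, and none passed the threshold. Snhg18 is named as the gene of that list with the smallest p. Snhg18 had 9.66, 11.4 and 10.6 FPKM in SS18-SSX2 tumors, against 20.6, 31.7 and 17.9 FPKM in SS18-SSX1 tumors, a log2 difference of −1.04 with a standard error of 0.28 (limma, Benjamini-Hochberg adjusted p = 0.593). All 3 SS18-SSX2 tumors lay below the SS18-SSX1 tumors.

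The 6 lists of proteins that work with these RNAs held 87 tested genes. Limma and voom on reads each called 0. Each had 1 gene, in the Cajal body list, at an unadjusted p under 0.05. Of all tested genes limma called 0.0649%, so 0 called in lists of this size says little about these proteins. The share of all tested genes at an unadjusted p under 0.05 was 4.97% by limma. Of 9 tested C/D box snoRNP proteins, 0 were called, 5 had higher and 4 lower means with SS18-SSX2, and the median log2 difference was 0.03. The smallest p of the list belonged to Snu13, the protein that binds the C/D motif, with 2.88, 2.13 and 2.13 FPKM in SS18-SSX2 tumors, against 2.54, 5.39 and 5.24 FPKM in SS18-SSX1 tumors, overlapping. Of 6 H/ACA box proteins, 2 were higher and 4 lower (median −0.04). Dkc1, the pseudouridine synthase of the particle, had 14.8, 13.2 and 11.1 FPKM in SS18-SSX2 tumors, against 10.4, 10.2 and 10.6 FPKM in SS18-SSX1 tumors, without overlap but with an adjusted p of 0.997.

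Of 19 genes of the Cajal body and of small RNA assembly, 8 had higher and 11 lower means with SS18-SSX2 (median −0.03). Gemin8, a subunit of the SMN complex that loads Sm proteins onto snRNAs, had 4.95, 5.57 and 6.81 FPKM in SS18-SSX2 tumors, against 1.60, 3.24 and 2.20 FPKM in SS18-SSX1 tumors. Its genotypes did not overlap and its log2 difference was 1.04 with a standard error of 0.30 (limma, Benjamini-Hochberg adjusted p = 0.671). Of 16 Sm and LSm proteins, 7 were higher and 9 lower (median −0.12), and of 18 other spliceosomal proteins 10 were higher and 8 lower (median 0.10). Of 19 genes for snRNA transcription and end processing, 13 were higher and 6 lower (median 0.07).

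Markers of other cells varied between tumors too. The mean level of 12 skeletal muscle markers, log2(FPKM + 1), was 3.05, 8.26 and 3.32 in SS18-SSX2 tumors, against 4.37, 9.50 and 4.79 in SS18-SSX1 tumors. It was highest in tumor 2 of both genotypes, where the median deviation of the members of 151 to 414 bases was also highest (0.83 and 0.73). That deviation was nearly as high in SS18-SSX1 tumor 3 (0.69), where the muscle level was 4.79. With the muscle level as a covariate 0 members were called, against 8 of all 13873 tested genes, and the median log2 difference of the members was 0.07. Macrophage markers (9 genes) summed to 145, 620 and 159 FPKM in SS18-SSX2 tumors, against 48.0, 347 and 383 FPKM in SS18-SSX1 tumors. Endothelial markers (6 genes) summed to 90.1, 18.8 and 79.8 FPKM in SS18-SSX2 tumors, against 75.7, 10.9 and 44.5 FPKM in SS18-SSX1 tumors, lowest in tumor 2 of both genotypes. The 8 proliferation genes were all higher in SS18-SSX2 tumors by their means (median log2 difference 1.11). Their mean level was 4.52, 3.04 and 4.27 in SS18-SSX2 tumors, against 2.94, 2.43 and 3.29 in SS18-SSX1 tumors. Limma called 0 of the 8, against 0.0649% of all tested genes. At an unadjusted p under 0.05 there were 3 of the 8 by limma and 3 by voom on reads, against 4.97% of all tested genes by limma. The genotypes did not overlap for 2 of the 8, against 8.72% of all tested genes. The part of these markers and of the proliferation genes in the members' levels was not tested.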

How the data were processed

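Total RNA of snap-frozen tumors was sequenced after Ribo-Zero depletion, per the labels' protocols. Per the submitters' processing notes, Novoalign 2.08.03 and build mm10 are listed with no role. The authors deposited 1 table of FPKM values. Counting tool, gene models, strand and multi-match handling are named in no source used here, so near-identical copies and overlapping genes are uncertain. Gene types, positions and sequences came from GENCODE M21 (GRCm38). Reads were recovered from FPKM steps and annotated lengths, and 235 of 238 members gave whole reads in all tumors. The test was limma 3.58.1 (R 4.3.3, eBayes with trend, two-sided) on log2 values after a pseudocount of 1, over the 13873 genes that reached 1 FPKM in 3 tumors or more, with Benjamini-Hochberg adjustment at 0.05, and it was tested on simulated data. Near-identical copies and nearest named relatives came from blastn 2.17.0. Named members are those without overlap between genotypes, those with the highest mean per class or the largest SD, the Rnu genes and the imprinted cluster, with up to 3 list genes by smallest p and hosts. Snord118, Scarna2 and any other gene were named after their values were seen. Members and lists were chosen with earlier results of these data known. Alternatives were pseudocounts, filters, scalings, eBayes settings, a replicate block, a muscle covariate and leaving out tumors.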

Additional observations from a re-analysis of the deposited data

How the results depend on the processing

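The count of called members was 0 under all 21 alternatives, and the smallest adjusted p of a member in any of them was 0.129. Among genes of any type the alternatives called between 0 (without tumor 1 of both genotypes) and 20 (without tumor 2 of both genotypes). With so few genes called, 0 called members says little about the members. Leaving out tumor 1 or tumor 2 of both genotypes and the voom fit were chosen after seeing the data. The median difference of the members, −0.06 as reported, ran from −0.20 to 0.14 when 1 tumor was left out. Every alternative moved it by less than 0.229, the pooled SD of the members' median level among tumors of the same genotype. That SD describes single tumors and not a difference between group means, so it is no test of stability. Rescaling to TPM moved the median of all genes to 0.08. All 13 members without overlap stayed above the threshold in the 269 results obtained. They also kept their direction. Their choice by non-overlap fixed this in advance for pseudocounts, filters, eBayes settings, the replicate block and leaving out tumors. The kept direction is therefore no support for a difference. The tumor numbers were shared by the genotypes. The deposited column names also begin with A for tumor 2 and B for tumor 3 of both genotypes, and with N for tumor 1. No label says what these letters stand for or that they pair the tumors. For a comparison of same-numbered tumors, deviations were taken from the mean of the tumor's own genotype, not from the mean over the 6 tumors. These correlated at 0.38, 0.31 and −0.28 over all tested genes (0.68, 0.59 and 0.07 over members). With the tumor number as a replicate block, 0 members were called, against 4 of all 13873 tested genes, and the median difference was −0.06. In that fit 24 members had an unadjusted p under 0.05. The share of all tested genes at that p was not computed for it, so the 24 are no result about the members. Depth limits most members, since their median total was 77 reads over 6 tumors.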
